A study of Mus musculus with 65 samples.

Results

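The unbound fraction of a repli-ATAC-seq experiment in mouse embryonic stem cells was compared between triptolide and DMSO, using the 3 triptolide and the 3 DMSO libraries labelled nascent and unbound. These are 6 of the 65 samples of the series and 6 of 18 unbound libraries. The cells were E14TG2a, an embryonic stem cell line from 129/Ola mice, grown on gelatin with LIF and 15% serum. All 3 treatments (DMSO, triptolide and DRB) were given for 2 h, and EdU, a thymidine analogue that marks newly copied DNA, was then added at 20 uM for 10 min. Nascent libraries were collected with no chase, and the 2 h libraries used beside them after a 2 h chase. ATAC-seq cuts open chromatin with a transposase, EdU-labelled fragments were captured on streptavidin beads, and the unbound libraries were made from the fragments left in solution. The unbound fraction is therefore largely chromatin that was not replicated during the pulse. The labels give neither the drug doses nor whether the 3 libraries of a group came from separate cultures, so the p-values measure the spread between these libraries, which may be technical.

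Triptolide binds XPB, the ATPase of the general transcription factor TFIIH that opens promoter DNA, and so blocks initiation by RNA polymerase II. It also leads to loss of the polymerase itself. DRB inhibits CDK9, the kinase of P-TEFb, and holds polymerase that has already started close to the promoter. RNA polymerase II transcribes messenger RNAs and most spliceosomal and small nucleolar RNAs, whereas RNA polymerase III makes tRNAs, 7SK RNA and the RNA of RNase MRP.

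Accessibility was deposited per 1 kb window, every 500 bp, as log2(RPM + 1), where RPM is the read count scaled to each library's total. The DMSO libraries held 6689578, 2351201 and 12215668 reads and the triptolide libraries 9903186, 8534306 and 14363372. One read was thus worth 0.425 RPM in DMSO replicate 2 and 0.0696 RPM in triptolide replicate 3. Windows at 34 pluripotency genes summed to between 290.9 and 302.6 RPM in the DMSO libraries, and 10 of 11 genes of the 2-cell-like state were under 1 RPM. Markers of primitive endoderm, trophectoderm and fibroblasts were not at 0 as lists (58.2 to 65.07, 28.98 to 30.79 and 44.12 to 46.94 RPM summed over 13, 7 and 11 genes). Of these lists 5, 1 and 3 genes were under 1 RPM, beside 2 of the 34 pluripotency genes. The DMSO means per gene were 4.73, 4.24 and 4.15 RPM, beside 8.75 RPM for the pluripotency genes. RPM is relative to all reads of a library, so the levels were also set against 19201 windows away from any accessibility peak. Peaks of RNA polymerase II were not avoided in drawing these windows. The mean over TSS windows was 22.9 ± 0.717 times this background in DMSO and 21.0 ± 1.15 times in triptolide, and over other peaks 15.2 ± 0.645 and 13.6 ± 0.912 times (SD, n = 3). Triptolide was below DMSO without overlap in both (exact permutation p = 0.1), but the replicate 1 libraries hardly differed. They came to 22.33 times in both DMSO and triptolide at TSSs, and to 14.5 and 14.43 times at other peaks. The background windows themselves had 5.7% more RPM in triptolide, with overlapping libraries. In bulk libraries a closed site in some of the cells and a partly closed site in all of them cannot be told apart.

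Windows called lower with triptolide in the unbound fraction were a minority of each class of site. A window that was not called is not shown to be unchanged. Of 30310 transcription start site (TSS) windows tested, 463 fell (1.53%) and 215 rose (0.709%). At enhancers 1047 of 8783 windows fell (11.9%) and 63 rose (0.717%), and at other peaks 3065 of 136303 fell (2.25%) and 2484 rose (1.82%). Of 19201 windows away from any accessibility peak, 0 fell with limma (0.0%) and 4 rose (0.0208%). An unadjusted p under 0.05 was found in 1280 of them, in either direction. Windows were called at a Benjamini-Hochberg adjusted p under 0.05 over all windows of the class, from a limma fit to the log2 values of the 18 unbound libraries. The median difference was 0.018 at TSSs, -0.20 at enhancers and -0.035 at other peaks, with median standard errors of 0.165, 0.203 and 0.216. The balance of calls depends on the scaling: centred on the median TSS window, falls and rises were 806 and 150 at TSSs and 4999 and 1880 at other peaks, and scaled to background windows they were 499 and 112, and 4095 and 1886. All differences below are triptolide or DRB minus DMSO in log2(RPM + 1), which understates changes of windows near 0.

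In each class of site a larger share of windows fell where a polymerase peak was present. TSS windows that overlap a deposited peak of the serine 5 phosphorylated form of RNA polymerase II (S5P), found at initiation and pausing, held 334 of the 463 falls among 5489 windows, with 48 rises (6.09% and 0.874%). The other 24821 TSS windows had 129 falls and 167 rises. Falls made up 29.8% of 168 enhancers with S5P and 21.3% of 2160 other peaks with S5P, beside the shares of all enhancers and other peaks given above. Mean accessibility of the S5P windows was 8.90, 8.91 and 8.50 RPM in DMSO and 8.40, 7.96 and 7.89 RPM in triptolide. The groups did not overlap, and the triptolide mean was 7.87% lower (two-sided exact permutation test, p = 0.1, the smallest that 3 against 3 allows). DRB gave 8.54, 7.91 and 7.75 RPM at these S5P windows, a mean of 8.07 RPM beside 8.08 RPM in triptolide. With DRB 99 of the 5489 windows fell and 34 rose, beside 0.637% and 0.267% of all TSS windows. The median difference was -0.089 with DRB and -0.051 with triptolide. On the scale of log2(RPM + 1), in which the few most open windows weigh less, the same windows had means of 3.10, 3.06 and 3.03 in DMSO and 3.04, 2.97 and 2.95 in triptolide, which overlapped (exact p = 0.2). Without S5P the means were 2.95 and 2.96 RPM (exact p = 0.9), but in log2(RPM + 1) they were 1.35, 1.34 and 1.36 in DMSO and 1.38, 1.36 and 1.39 in triptolide, higher without overlap (exact p = 0.1).

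Windows were also grouped by their level in the 2 h DMSO libraries, which do not enter the difference. Of 303 TSS windows above 20 RPM 40 fell and 0 rose (median -0.18), and of 2587 windows at 10 to 20 RPM 190 fell and 9 rose (median -0.10). Below 1 RPM 10 of 13080 fell and 52 rose. Among enhancers above 20 RPM 56 of 141 fell and 0 rose (median -0.31), and among those at 10 to 20 RPM 293 of 1084 fell and 0 rose (median -0.29). With DRB 193 TSS windows fell (0.637%) and 81 rose (0.267%), with a median of -0.20 at the windows above 20 RPM, where 11 fell, and of -0.17 at the enhancers above 20 RPM, where 2 fell. Triptolide and DRB share the same 3 DMSO libraries, so their differences from DMSO are given side by side. Where values of triptolide minus DRB are given below, they come from a direct test between the drugs. Windows of low level also have the fewest reads, which limits the calls there.

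**Figure D1:**
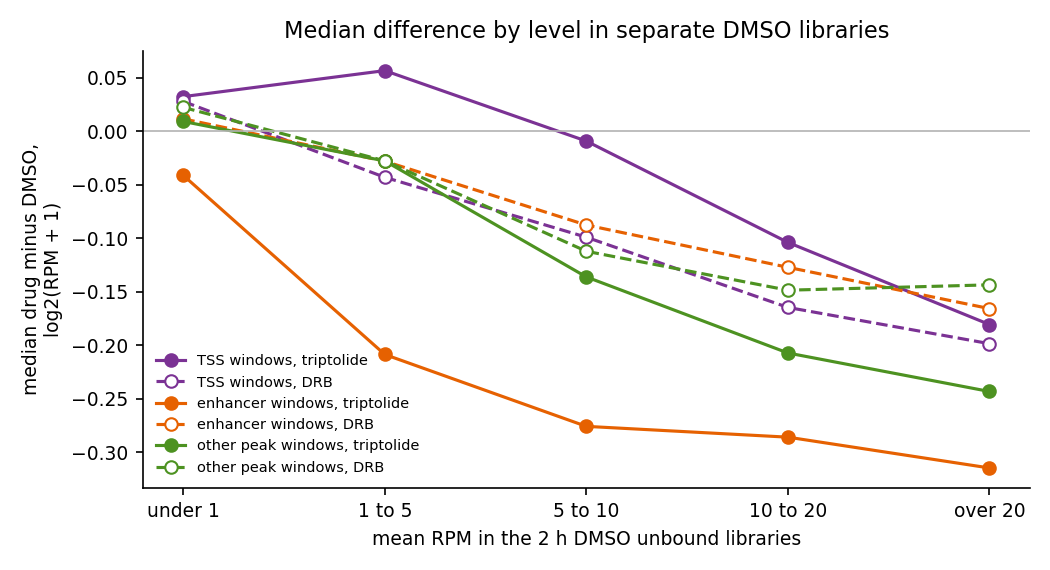
Median drug minus DMSO difference in log2(RPM + 1) of TSS and enhancer windows, in 5 classes of mean RPM in the 2 h DMSO unbound libraries. Triptolide medians reach -0.18 at TSS windows and -0.31 at enhancers above 20 RPM.

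Around S5P-bound TSSs the shape of the accessible region also differed. At 3164 such TSSs with no other TSS nearby, the window centred on the TSS was 5.84% lower in triptolide, with overlapping libraries, and the window 500 bp upstream was 9.05% lower. At 500 bp upstream the libraries did not overlap, and from 500 to 1500 bp downstream the difference had the opposite sign. At 1000 bp into the gene the mean was 2.86 RPM in DMSO and 3.27 RPM in triptolide, 14.5% higher, and DRB was also 14.5% higher there. The lowest triptolide library (3.19 RPM) was above the highest DMSO library (2.92 RPM). At 5000 bp into the gene triptolide was 10.4% lower, again without overlap. At 8186 TSSs with a steady-state accessibility peak and no S5P the centre was 1.01% higher and the window at 1000 bp 10.5% higher. At enhancers the fall was centred, 18.85% at the middle, 16.8% at 500 bp and about 7.6% at 1000 bp on both sides.

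**Figure D2:**
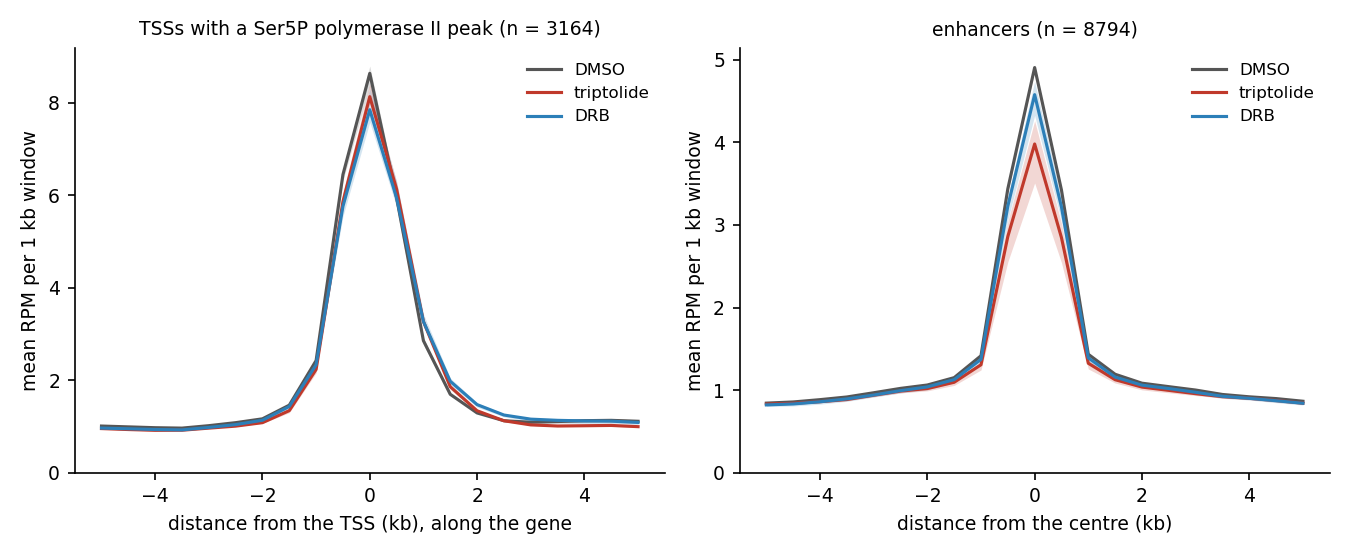
Mean RPM per 1 kb window against distance from the TSS or enhancer centre in kb, as lines for the mean of 3 libraries with bands from the lowest to the highest library. At the enhancer centre the DMSO mean is 4.91 RPM and the triptolide mean 3.98 RPM.

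Of the gene groups examined at TSSs, small nuclear RNA genes with an S5P peak had the lowest median. These RNAs form the spliceosome and guide early ribosomal RNA processing, and their promoters use a dedicated factor complex (SNAPc) in place of the usual core elements. Of 36 annotated snRNA windows with an S5P peak, 30 fell and 0 rose, all 36 differences were negative, and the median was -1.66 (range -3.02 to -0.08). The median window held 12.9 RPM in DMSO, 3.69 RPM in triptolide and 11.8 RPM in DRB. With DRB 0 of them were called in either direction (limma; median -0.077; 4 were lower and 0 higher at an unadjusted p under 0.05). In the direct test triptolide lay below DRB in 29 of the 36, against 0.571% of all TSS windows, with a median difference of -1.55. This grouping by S5P was made after the values were seen. Without regard to S5P, a list of small nuclear and other small structural RNA genes had a median of -0.28. In that list 10 of 27 tested genes fell and 0 rose, beside 1.74% and 0.716% of all genes.

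Rnu5g, a gene of the U5 RNA that aligns exons for joining, held 17.3, 18.3 and 18.1 RPM in DMSO and 2.02, 1.41 and 1.74 RPM in triptolide at chr9:65201501-65202500 (mm10). DRB gave 13, 17.4 and 14.8 RPM there. The triptolide libraries lay far below both other groups, which met in part. The means were 17.9 ± 0.5 and 1.72 ± 0.307 RPM (SD, n = 3), 10.4-fold apart (difference -2.80, SE 0.15, limma adjusted p = 3.4e-19). Rnu1a1, a gene of the U1 RNA that recognises the start of introns, held 11.2, 11.9 and 9.82 RPM in DMSO, 1.41, 0.937 and 1.25 RPM in triptolide and 12.7, 13.7 and 9.8 RPM in DRB. Its triptolide libraries did not overlap the others, and the fold between the triptolide and DMSO means was 9.14 (difference -2.45, limma adjusted p = 2.8e-15).

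Rnu2-10, a gene of the U2 RNA that binds the branch point, fell by a smaller amount. It held 14.2, 9.36 and 13.3 RPM in DMSO, 4.54, 4.22 and 3.69 RPM in triptolide and 11.6, 13.8 and 11.7 RPM in DRB (difference -1.35, limma adjusted p = 7.8e-09). Genes of the minor spliceosome, which removes a rare class of introns, fell as well. Rnu11 went from 15.7, 9.78 and 11.5 RPM to 3.23, 1.64 and 2.3 RPM (difference -1.98), and the Rnu12 window from 13.9, 12.8 and 13.4 RPM to 4.04, 5.16 and 3.55 RPM (difference -1.46), with no overlap between the groups in either case. Genes of the U3 RNA, annotated among the snRNA genes, which guides cleavage of the ribosomal RNA precursor, fell at 5 locations. The most open of them, Rnu3a, held 34.1, 41.3 and 38.9 RPM in DMSO, 9.29, 9.26 and 7.45 RPM in triptolide and 25.9, 36.8 and 30.6 RPM in DRB (4.39-fold between the first pair of means). Differences at Rnu3b4, Rnu3b1, Rnu3b2 and Rnu3b3 were -2.64, -2.47, -1.38 and -1.34, and DRB differences at the 5 lay between -0.41 and -0.22, with none called.

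The lowest difference of the group was at Gm22265, an annotated snRNA gene, with 13.9, 15.3 and 19.6 RPM in DMSO and 1.21, 1.05 and 1.04 RPM in triptolide (-3.02, limma adjusted p = 1.5e-19). Gm24830 was the most open, with 52, 58.3 and 56.9 RPM in DMSO and 11.3, 12.9 and 10.4 RPM in triptolide (-2.18). The 6 windows not called were at LOC115488077 (-0.81, adjusted p = 0.068), Gm24950, Gm26479, Gm24019, LOC115488065 and the second window of LOC115487699, with differences between -0.39 and -0.08 for the last 5. Many snRNA genes are near-identical copies, and no label says how reads that map to several places were treated, so the split between copies is uncertain. Of 76 snRNA windows with an accessibility peak and no S5P, 1 fell and 0 rose (median -0.074), and of 813 with neither, 2 fell and 0 rose (median 0.025). The count of 30 was between 28 and 32 under every alternative setting and every left-out library.

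**Figure D3:**
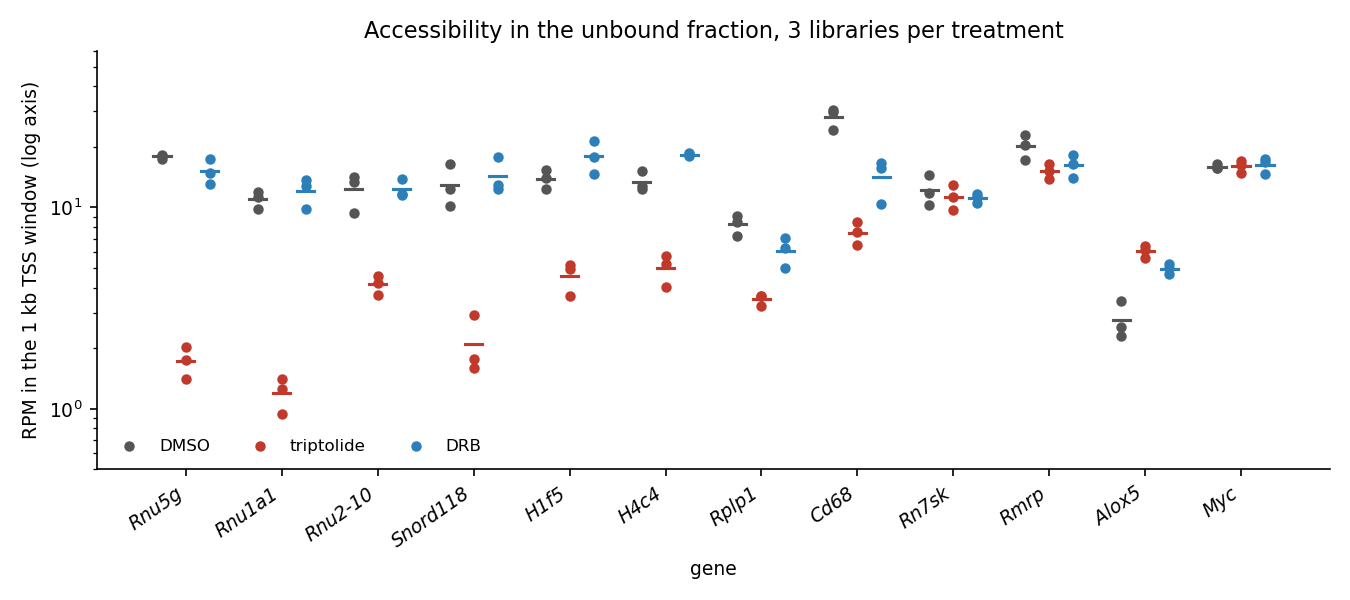
RPM in the TSS window (log axis) of 12 genes in the 3 DMSO, 3 triptolide and 3 DRB unbound nascent libraries, with points for libraries and bars for means. Rnu5g and Rnu1a1 lie near 1 to 2 RPM in triptolide and above 9 RPM in the other groups, whereas Rn7sk and Myc overlap.

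Small nucleolar RNA genes, most of which sit in introns of other genes, gave a mixed picture. Of 101 snoRNA windows with S5P, 31 fell (26 distinct windows) and 0 rose, beside 6.09% and 0.874% of all TSS windows with S5P, with a median of -0.38. DRB gave 6 rises and 3 falls and a median of 0.22, beside 34 rises and 99 falls of all 5489 TSS windows with S5P. The count of falls was 21 without triptolide replicate 3 and 9 when only the 6 libraries were fitted. A pair of snoRNA genes with promoters of their own resembled the snRNA genes. Snord118 (U8), which acts in large-subunit ribosomal RNA maturation, held 12.4, 10.2 and 16.4 RPM in DMSO, 2.93, 1.76 and 1.6 RPM in triptolide and 12.3, 17.8 and 13 RPM in DRB (-2.18, limma adjusted p = 1.2e-12). Snord13 (U13), which acts on the small subunit, held 10.3, 7.23 and 9.17, then 2.32, 2.81 and 1.25, then 9.52, 10.6 and 10.2 RPM (-1.68, limma adjusted p = 7.8e-08). In both, triptolide lay below all DMSO and DRB libraries. Falls of snoRNAs in introns of host genes included Snord83b in Rpl3 (-2.23; DRB -1.10), Snora73b in Snhg3 (-1.97; DRB -1.41) and LOC115487276 in Taf1d (-2.61; DRB -2.17).

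Among genes transcribed by RNA polymerase III, falls were called at tRNA genes and not at 8 others. Of those 8, chosen by name after values were seen, all had negative differences, 0 rose and 0 fell with limma (at an unadjusted p under 0.05, 1 was lower and 0 higher; by limma-voom 1 fell), and the medians were -0.27 in triptolide and -0.27 in DRB. Rn7sk, whose RNA holds P-TEFb inactive, held 10.3, 14.5 and 11.8 RPM in DMSO and 9.69, 12.9 and 11.2 RPM in triptolide. The libraries interleaved (means 12.2 ± 2.1 and 11.3 ± 1.6 RPM, difference -0.10, 95% interval -0.40 to 0.20, limma adjusted p = 0.82). Rmrp, the RNA of RNase MRP, held 17.2, 23 and 20.4 RPM and 16.4, 13.8 and 15.2 RPM, which did not overlap, with a difference of -0.39 that missed the threshold (limma adjusted p = 0.1). Of 367 tRNA gene windows, tested as a class added after values were seen, 20 fell (5.45%) and 1 rose (0.272%), with a median of -0.12, beside 1.53% and 0.709% of all TSS windows. Of the 279 with a steady-state peak 19 fell (6.81%) and 1 rose (median -0.17), beside 2.53% of TSS windows with such a peak falling. With DRB 0 of the 279 were called (limma; 44 lower and 7 higher at an unadjusted p under 0.05). Over all 367 tRNA gene windows the DRB median was -0.12, as with triptolide. The direct test of triptolide minus DRB called 0 of the 367 in either direction (limma, median -0.021), so no difference between the drugs was shown there.

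Replication-dependent histone genes fell as a group under triptolide and not under DRB. They are short, intronless genes, clustered on chromosomes 13 and 3, and transcribed most in S phase. Of 58 tested genes (63 in the list), 43 fell in 39 distinct windows and 0 rose, against 1.74% of all 23333 genes falling, and 55 differences were negative (median -0.78). With DRB 2 rose and 0 fell (background 0.236% and 0.694%; median 0.12), and triptolide lay below DRB in 43 (background 0.669%; median -0.87). By class, falls were 4 of 6 linker H1 genes, 10 of 15 H2A, 13 of 15 H2B, 7 of 11 H3 and 9 of 11 H4 genes. On chromosome 13 39 of 49 fell and on chromosome 3 4 of 9, with medians of -0.78 and -0.75. Of 50 with S5P 41 fell (median -0.81), and of 8 without it 2 (median -0.23). The count was 24 without triptolide replicate 3 and 15 when only the 6 libraries were fitted, and the median without that replicate was -0.62.

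H1f5, a linker histone gene, held 12.4, 14 and 15.3 RPM in DMSO, 3.63, 4.92 and 5.15 RPM in triptolide and 17.9, 21.4 and 14.7 RPM in DRB. All triptolide values were below 6 RPM and all others above 12 RPM (triptolide minus DMSO -1.43, SE 0.17, limma adjusted p = 6.9e-08; DRB 0.34, adjusted p = 0.39). H4c4 held 12.4, 12.8 and 15.1 RPM in DMSO, 5.25, 5.74 and 4.04 RPM in triptolide and 18.6, 18.4 and 17.9 RPM in DRB. DMSO and triptolide were 2.68-fold apart in the means (difference -1.27, limma adjusted p = 8.9e-09), and all DRB libraries were above all DMSO libraries (difference 0.42, adjusted p = 0.13). H2bc8 held 14.5, 20.0 and 17, then 7.27, 7.38 and 4.73, then 18.6, 17.5 and 14.6 RPM (-1.29), and shares an intergenic promoter and part of its reads with H2ac8 (-1.29). H1f1 held 9.27, 9.78 and 9.74 RPM in DMSO, 4.34, 4.57 and 2.85 RPM in triptolide and 16.4, 16.4 and 13.2 RPM in DRB (-1.12; DRB 0.62, adjusted p = 0.093). The 15 genes not called included H4c2 (-0.34) and H4c11 (-0.30), which are the 2 that rose with DRB (0.69 and 0.70), H3c8 (-0.50), H2ac18 (-0.83, adjusted p = 0.056) and the testis genes H2bc1 (0.01) and H1f6 (-0.35). Histone copies are alike in sequence, so values of single genes are uncertain in the same way as for snRNA genes.

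The 250 bases before the start of histone genes held a TATA box, a CCAAT box and an octamer core more often, and a GC box less often, than those of all coding genes. The 4 below are shown because their windows fell by 1.12 to 1.43 on the log2 scale; capitals mark a TATA box, CCAAT box, GC box, octamer core or AP-1 site on either strand, spelled out below. Sequences are from RefSeq, GRCm38.p6: H1f5 is chr13:21780626-21780875, minus strand, H4c4 chr13:23581318-23581567, plus strand, H2bc8 chr13:23571150-23571399, plus strand and H1f1 chr13:23763418-23763667, plus strand.
H1f5: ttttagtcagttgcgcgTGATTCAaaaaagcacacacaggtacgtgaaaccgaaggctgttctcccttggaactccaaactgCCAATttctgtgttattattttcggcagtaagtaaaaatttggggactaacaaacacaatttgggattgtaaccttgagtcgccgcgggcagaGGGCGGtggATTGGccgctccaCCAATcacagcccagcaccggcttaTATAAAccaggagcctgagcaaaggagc
H4c4: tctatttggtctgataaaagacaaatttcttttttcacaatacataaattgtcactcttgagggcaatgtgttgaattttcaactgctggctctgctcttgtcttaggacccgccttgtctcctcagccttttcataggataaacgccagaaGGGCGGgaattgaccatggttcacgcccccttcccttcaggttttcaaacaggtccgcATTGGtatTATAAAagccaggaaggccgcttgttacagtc
H2bc8: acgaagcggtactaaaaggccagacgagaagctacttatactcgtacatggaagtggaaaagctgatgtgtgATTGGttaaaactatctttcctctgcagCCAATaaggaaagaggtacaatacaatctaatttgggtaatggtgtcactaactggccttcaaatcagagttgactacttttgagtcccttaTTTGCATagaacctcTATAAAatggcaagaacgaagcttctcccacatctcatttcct
H1f1: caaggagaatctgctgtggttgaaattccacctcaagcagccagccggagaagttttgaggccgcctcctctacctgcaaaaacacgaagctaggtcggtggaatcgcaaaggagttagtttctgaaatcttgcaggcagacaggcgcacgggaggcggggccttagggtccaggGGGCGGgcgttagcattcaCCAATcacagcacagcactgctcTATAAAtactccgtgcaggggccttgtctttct

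In all, 10 motifs were searched on both strands in the 250 bases before the TSS of 13420 coding genes whose promoter matched a window. The TATA box was taken as TATAAA, present in 62.3% of 53 histone promoters and 13.3% of all promoters. The CCAAT box was in 86.8% and 39.2%. The octamer core, ATGCAAA, was in 24.5% and 4.12%, and the GC box, GGGCGG, in 37.7% and 50.6%. In the 38 histone promoters whose window fell these shares were 65.8%, 86.8%, 28.9% and 34.2%. The other motifs were the AP-1 site (TGANTCA, in 5.66% and 7.0%), the CRE core (TGACGT, in 22.6% and 9.53%), and those named for ETS factors (CCGGAAG), for NRF1 (GCATGCG), for YY1 (AAGATGG) and the E-box (CACGTG). No motif contains another. Among 140 other coding promoters with S5P that fell, the TATA box was in 7.14% and the CCAAT box in 55.7%, against 6.95% and 38.4% of all 3455 promoters with S5P. The stretches of some neighbouring histone genes overlap, as those of H2bc8 and H2ac8, which hold the same TATA box and octamer core. Such a site counts for both promoters, so the histone promoters are not all separate sequences. A match is only a string of letters in this window.

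**Figure D4:**
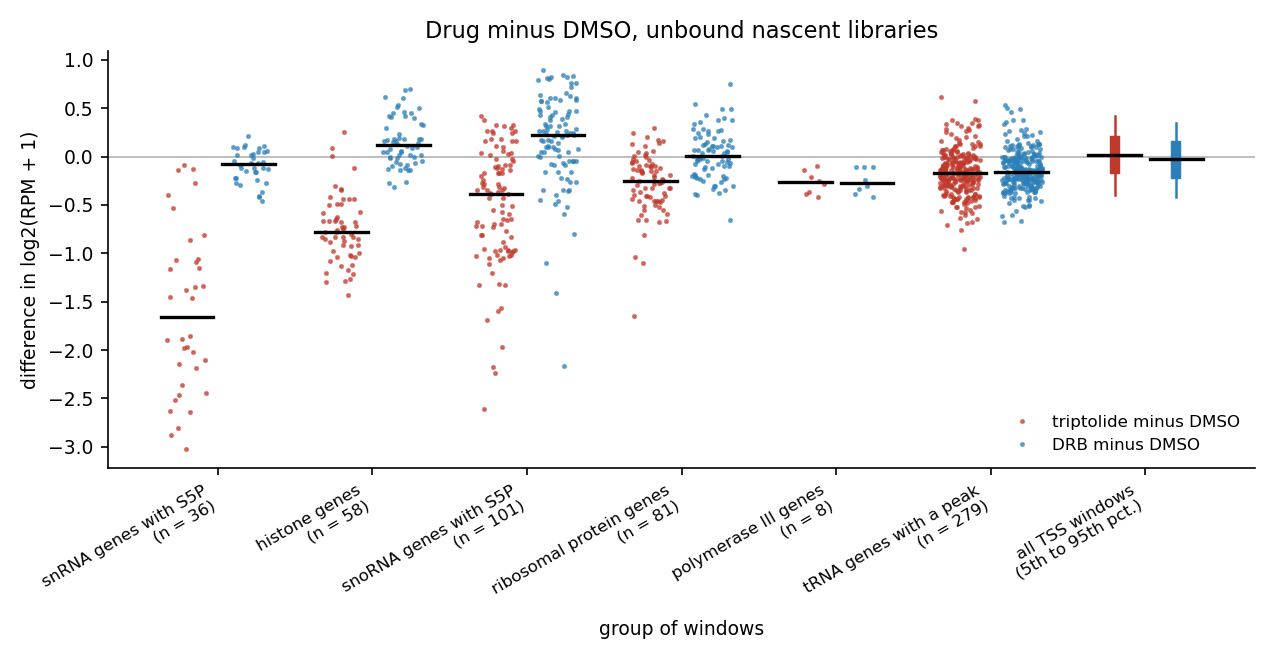
Drug minus DMSO difference in log2(RPM + 1) of each TSS window in 6 gene groups, with dots for windows, black bars for medians, and the 5th to 95th and 25th to 75th percentiles of all TSS windows at the right. The snRNA windows with S5P have a median of -1.66 with triptolide and -0.077 with DRB, and histone genes -0.78 and 0.12.

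All 4 windows described here in the microRNA cluster most abundant in embryonic stem cells, miR-290 to miR-295 on chromosome 7, fell with triptolide. The cluster is made as 1 primary transcript from the plus strand, and its microRNAs promote the fast cell cycle of these cells. Mature sequences, with the seed (bases 2 to 8) in capitals, are shown to group the products of the windows below; RefSeq, GRCm38.p6, plus strand. Of the 8 shown, AAGUGCU is shared by miR-291a-3p, miR-294-3p and miR-295-3p, and CUCAAAC by miR-290a-5p, miR-292a-5p and miR-293-5p, while miR-290a-3p and miR-291b-3p each have a seed of their own.
mmu-miR-290a-5p: aCUCAAACuaugggggcacuuu
mmu-miR-292a-5p: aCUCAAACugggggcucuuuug
mmu-miR-293-5p: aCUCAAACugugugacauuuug
mmu-miR-291a-3p: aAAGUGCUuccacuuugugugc
mmu-miR-294-3p: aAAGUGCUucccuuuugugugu
mmu-miR-295-3p: aAAGUGCUacuacuuuugagucu
mmu-miR-290a-3p: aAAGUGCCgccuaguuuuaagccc
mmu-miR-291b-3p: aAAGUGCAuccauuuuguuugu

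At the first microRNA window (chr7:3218001-3219000, Mir290a) there were 6.28, 5.1 and 6.96 RPM in DMSO, 2.32, 5.04 and 2.51 RPM in triptolide and 9.67, 11 and 11.2 RPM in DRB. The drugs went apart here: triptolide was lower than DMSO (-0.78, limma adjusted p = 0.0089), all DRB libraries were higher (0.71, adjusted p = 0.038), and triptolide minus DRB was -1.49 (adjusted p = 1.1e-07). The triptolide call was lost without DMSO replicate 3, triptolide replicate 1 or triptolide replicate 3. At chr7:3219001-3220000 (Mir291b) the values were 8.97, 15.3 and 12, then 5.35, 6.33 and 4.39, then 7.18, 7.29 and 6.8 RPM, a fall of 1.03 with triptolide and a DRB difference of -0.67 (adjusted p = 0.06). At chr7:3220001-3221000 (Mir293) triptolide fell from 8.22, 7.23 and 9.01 RPM to 1.11, 2.11 and 1.11 RPM, with 3.22, 4.99 and 2.65 RPM in DRB (-1.93 and -1.01). At the last window, chr7:3220501-3221500 (Mir295), there were 12.7, 18.3 and 17.1 RPM in DMSO, 3.33, 1.88 and 1.88 RPM in triptolide and 4.69, 5.88 and 3.71 RPM in DRB, a 6.79-fold fall of the means with triptolide (-2.35, SE 0.19, limma adjusted p = 3.5e-13; DRB -1.57). The last pair of windows overlaps by 500 bp and shares reads. All 49 miRNA gene windows with S5P gave 8 falls and 0 rises (median -0.18), beside 6.09% and 0.874% of all TSS windows with S5P. DRB gave 5 of each, beside 99 falls and 34 rises of all 5489 TSS windows with S5P.

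The 4 largest falls among other peaks lay near the 3' ends of genes. Of 480 S5P-bound peak windows within 2 kb of an annotated gene end and away from TSSs and enhancers, 231 fell (48.12%) and 3 rose, against 2.25% and 1.82% of all other peaks. The median level was 4.26, 5.10 and 5.20 RPM in the DMSO libraries, 2.32, 2.34 and 2.44 RPM in triptolide and 2.78, 3.07 and 2.74 RPM in DRB. Both drugs lay below DMSO without overlap, and DRB gave 187 falls and 6 rises (0.982% and 1.33% of all other peaks; median -0.40, triptolide -0.57). In the direct test triptolide was below DRB in 48 and above in 0 (0.106% and 0.00147% of all other peaks). S5P-bound peaks inside genes gave 74 falls and 16 rises of 737, those outside genes 156 and 26 of 943, and gene-end peaks without S5P 511 and 115 of 7662. The position classes were set after values were seen. The 231 falls ranged from 215 to 246 over all settings and left-out libraries.

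At the end of Mat2a, which encodes the enzyme that makes S-adenosylmethionine, there were 12.3, 25.9 and 22 RPM in DMSO, 0.303, 0.234 and 0.557 RPM in triptolide and 0.439, 1.53 and 0.971 RPM in DRB (window 796 bp from the gene end; difference -3.89, limma adjusted p = 3.2e-22; DRB -3.39). The triptolide libraries hold only a few reads there. At the end of Rpsa, a ribosomal protein gene, there were 18.4, 31.9 and 25.9 RPM in DMSO, 0.808, 0.703 and 0.836 RPM in triptolide and 4.1, 6.14 and 3.8 RPM in DRB. Triptolide was 32.5-fold below DMSO in the means (-3.86) and also below DRB (-1.65, limma adjusted p = 8.6e-08). Gas5, a noncoding host of snoRNAs, held 26.8, 34 and 34.4, then 2.32, 1.76 and 0.975, then 3.96, 6.26 and 5.21 RPM at its end (-3.63; DRB -2.42). Hnrnpa2b1, which encodes a splicing regulator, held 20.3, 28.1 and 25.8, then 0.808, 1.41 and 1.04, then 2.34, 3.45 and 1.59 RPM (-3.62; DRB -2.92). In all 4 windows every library of both drugs lay below every DMSO library. Among annotated enhancers, the 17 with S5P at a gene end gave 11 falls and 0 rises (median -0.56).

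**Figure D5:**
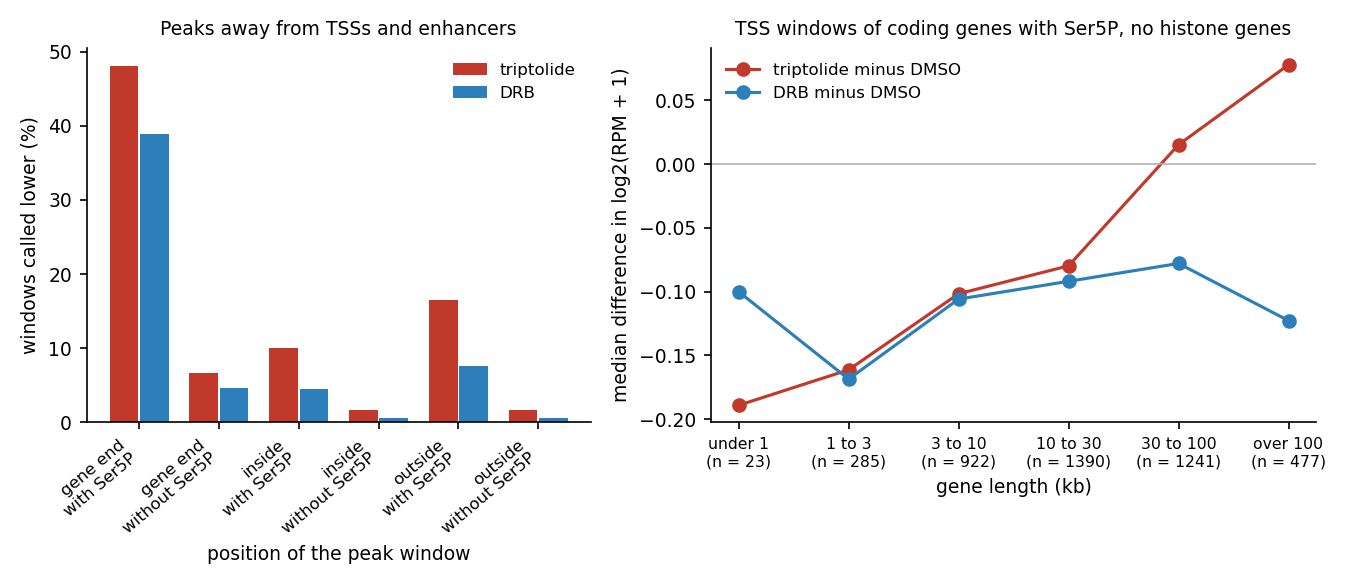
Left, percent of other peak windows called lower with triptolide or DRB by position and S5P peak. Right, median difference in log2(RPM + 1) at TSS windows of coding genes with S5P by gene length, histones left out; 48.12% of S5P-bound gene-end windows fell with triptolide, and genes over 100 kb have medians of 0.078 with triptolide and -0.12 with DRB.

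The same position marked most of the coding TSS windows that fell furthest. Of the 12 with the largest falls, 8 lie within 2 kb of the end of another gene, whose reads cannot be told apart from the promoter's own. The Msh4 window, 1289 bp from the end of Rabggtb, held 15.2, 20.0 and 18.7 RPM in DMSO, 3.33, 3.16 and 2.23 RPM in triptolide and 4.98, 6.39 and 6.18 RPM in DRB (-2.28, SE 0.16, limma adjusted p = 3.6e-15; DRB -1.47). Cd68, a macrophage marker, lies 936 bp from the end of Eif4a1, a translation initiation factor gene, and held 24.4, 29.8 and 30.6, then 7.57, 8.44 and 6.47, then 15.7, 16.6 and 10.4 RPM (-1.78; DRB -0.96). In both windows no triptolide library reached any DMSO library. The others of the 8 include 4930404N11Rik (-1.94, end of Mfsd12), Itgb1bp2 (-1.37, Nono), 1700001P01Rik (-1.35, Rpl23), Gzmm (-1.30, Cdc34) and Gramd2 (-1.30, Pkm). Of the windows away from other genes' ends, the Poldip3 window (-1.46) holds Rnu12, H1f5 is given above, and Ccnb1ip1 had -1.50. Over all non-histone coding TSS windows with S5P, 53 of 337 with another gene's end within 2 kb fell and 0 rose (median -0.20), against 117 falls and 32 rises of 3763 without one (median -0.031). DRB gave 25 of 337 and 43 of 3763 falls. Of these 12 falls, 10 were called under every setting tried, and all 12 with each library left out in turn.

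Lists of translation and splicing genes also held falls. Of 81 ribosomal protein genes 11 fell and 0 rose (median -0.25; DRB 1 rise, 1 fall, median 0.007), with 1.74% and 0.716% of all genes falling and rising. Rplp1, of the ribosomal stalk, held 9.12, 8.51 and 7.2 RPM in DMSO, 3.23, 3.63 and 3.62 RPM in triptolide and 7.03, 4.99 and 6.27 RPM in DRB, and the 3 groups did not overlap (means 8.28 ± 0.978 and 3.5 ± 0.228 RPM; -1.04, limma adjusted p = 4.9e-05; DRB -0.39, adjusted p = 0.28). Rps2 (-1.10, near the end of Snhg9) and Rpl3 (-0.82) also fell. The count was 4 without triptolide replicate 3, 6 without DMSO replicate 2, 7 without DMSO replicate 1 or triptolide replicate 2, and 2 with only the 6 libraries fitted. Of 68 mitochondrial ribosomal protein genes 1 fell (Mrps26, -0.55). Of 39 splicing factor and hnRNP genes 4 fell and 0 rose (median -0.25): Srsf5 (-0.83), an SR protein, Prpf8 (-0.76), the scaffold of the spliceosome's core, Sf1 (-0.66), which binds the branch point, and Hnrnpa1 (-0.64), an hnRNP.

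Short genes with S5P leaned towards lower values. Leaving histones out, medians were -0.16 for 285 genes of 1 to 3 kb (34 falls, 0 rises), -0.10 for 922 genes of 3 to 10 kb (66 and 7), -0.08 for 1390 genes of 10 to 30 kb (45 and 8), 0.015 for 1241 genes of 30 to 100 kb (26 and 15) and 0.078 for 477 longer genes (6 and 1). With DRB the medians of the same classes were -0.17, -0.11, -0.09, -0.078 and -0.12. The length classes were set after values were seen, and the difference between the drugs along them was not tested.

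Of 34 pluripotency genes 3 fell and 1 rose (median -0.18), beside 1.74% and 0.716% of all genes; the summed level of the list was 290.9 to 302.6 RPM in DMSO and 245.8 to 263.8 RPM in triptolide. Zfp42 (Rex1), a marker of the naive state, held 14.8, 14.5 and 13.8 RPM in DMSO and 10.4, 10.9 and 8.98 RPM in triptolide (-0.47, limma adjusted p = 0.039). Tdgf1, the Nodal co-receptor, held 6.13, 6.38 and 7.04 RPM and 3.43, 4.22 and 3.69 RPM (-0.65), and Tfcp2l1, a naive-state transcription factor, rose from 7.33, 5.1 and 6.96 RPM to 9.29, 9.96 and 9.33 RPM (0.51). The other fall was of a gene that was in the list by its symbol and is not a pluripotency factor. Sox2 held 14.7, 15.3 and 11.4 RPM and 9.9, 10.7 and 8.42 RPM, without overlap, and missed the threshold (-0.47, adjusted p = 0.067). Nanog (-0.15), Pou5f1 (-0.32) and Klf4 (-0.39) were not called either. Myc, encoding a growth transcription factor, held 15.7, 15.7 and 16.4 RPM in DMSO and 14.8, 16.2 and 17.1 RPM in triptolide, which interleave (0.00, SE 0.14, adjusted p = 1).

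Genes of the drugs' targets and of polymerase gave few calls, beside 1.74% of all genes falling and 0.716% rising. Single calls in lists of these sizes are given as values of the genes and not as results about the lists. Of 12 genes of RNA polymerase II subunits 0 fell and 0 rose (limma; at an unadjusted p under 0.05, 2 lower and 0 higher; 0 by limma-voom), with Polr2a at -0.49 (adjusted p = 0.12). Of 9 TFIIH genes 1 rose, Ccnh, which encodes cyclin H of the CDK-activating kinase, with 6.73, 4.68 and 6.88 RPM in DMSO and 10.4, 9.72 and 9.47 RPM in triptolide (0.63, adjusted p = 0.046). Of 20 pausing and elongation genes 1 fell, Mepce (-0.60), which caps 7SK RNA, and Hexim1 was at -0.32 (adjusted p = 0.21). Heat shock and chaperone genes gave 1 fall of 22, Hspa9 (-0.59), and proteasome genes 1 rise and 1 fall of 38, Psma1 (0.71) and Psmc4 (-0.61). Of 25 housekeeping genes Emc7 rose (0.53) and Nono (-0.51) and Chmp2a (-1.03, at the end of Ube2m) fell. With limma 0 of 28 immediate early, 0 of 60 Polycomb-bound developmental and 0 of 17 glycolysis genes were called. At an unadjusted p under 0.05 there were 1 higher and 1 lower, 5 and 3, and 0 and 0, and limma-voom called 0, 1 rise and 0. Their medians were 0.05 and 0.06 for the first pair. Of 994 olfactory receptor genes 3 rose (0.302%) and 1 fell (0.101%). Of 288 numbered zinc finger genes 3 rose (1.04%) and 5 fell (1.74%), near the shares of all genes.

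The largest rises at coding TSSs were smaller than the largest falls. Of the 12 largest 3 had an S5P peak, as did 4464 of all 17748 coding windows tested. Klhdc7a held 2.54, 0.851 and 2.21 RPM in DMSO, 5.45, 4.69 and 5.22 RPM in triptolide and 6.59, 4.35 and 5.83 RPM in DRB, both drugs above DMSO (1.15, limma adjusted p = 0.00027; DRB 1.24). Alox5, the 5-lipoxygenase gene of leukotriene synthesis, held 3.44, 2.55 and 2.29, then 6.16, 6.45 and 5.64, then 4.69, 4.99 and 5.21 RPM (0.92, adjusted p = 0.00044; DRB 0.68). Calhm2 (0.98), Hdgfl1 (0.98) and C130050O18Rik (0.98) had triptolide libraries that all lay above those of DMSO. The largest, Cisd2 (1.19), had 2.84, 0.425 and 3.68 RPM in DMSO, so a single low library widens it. None of the 12 was called in every setting: 6 were called without DMSO replicate 2, 7 without triptolide replicate 3 and 0 with only the 6 libraries fitted.

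Of 23 p53 target genes 3 rose and 0 fell (median 0.10; DRB 2 rises, 1 fall), beside 0.716% and 1.74% of all genes (0.236% and 0.694% with DRB). Gdf15, a stress cytokine, held 1.79, 1.28 and 2.54 RPM in DMSO, 4.85, 3.87 and 4.59 RPM in triptolide and 3.08, 3.07 and 3.44 RPM in DRB, and triptolide was 2.37-fold above DMSO in the means (0.94, limma adjusted p = 0.0035). Plk2 held 6.58, 5.53 and 6.96 RPM and 10.3, 10.1 and 9.05 RPM (0.56), and Pmaip1, the apoptosis gene Noxa, 4.19, 4.25 and 4.01 RPM and 7.98, 6.09 and 6.82 RPM (0.62). In all 3 the triptolide libraries lay above every DMSO library. Cdkn1a (p21) was at 0.58 with triptolide (adjusted p = 0.11) and rose with DRB (0.93, adjusted p = 0.0081), and Mdm2 was at -0.30.

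At enhancers the fall was broad and shallow. The mean over 8783 enhancer windows was 4.87, 4.92 and 4.94 RPM in DMSO, 4.18, 4.27 and 3.51 RPM in triptolide and 4.67, 4.74 and 4.33 RPM in DRB. Triptolide did not overlap DMSO (4.91 ± 0.0369 and 3.99 ± 0.412 RPM, SD, n = 3), and was 18.9% lower (exact permutation p = 0.1, the smallest possible). Relative to background windows the mean was 27.0, 28.7 and 28.5 times in DMSO and 23.3, 23.0 and 18.4 times in triptolide. Of 8783 windows, 6633 differences were negative. The excess of the enhancer over the TSS mean in log2 was 0.440, 0.431 and 0.460 in DMSO and 0.270, 0.322 and 0.0973 in triptolide (difference -0.21, exact p = 0.1). Triptolide replicate 3 was the lowest library throughout, and without it 223 enhancers fell in place of 1047. Without DMSO replicate 2, the shallowest library, 579 fell. By limma-voom on reads recovered from the RPM values, 1664 fell and 48 rose with library totals, but 132 fell and 171 rose when the scaling was taken from the enhancer windows themselves, which sets their median near 0 by construction.

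Enhancers open soonest after replication fell most often. Those in the peak list of nascent DNA gave 425 falls and 7 rises of 1851 (median -0.27), those first in the 30 min list 390 of 2642 (-0.26), those first at 1 or 2 h 158 of 2090 (-0.22), those in the steady-state list only 48 of 843 (-0.15) and those in no list 26 of 1357 (-0.018). These classes differ in level as well, and level was not held fixed. Falls occurred at every distance from a TSS: 361 of 2390 fell within 10 kb (-0.23), 453 of 3497 at 10 to 50 kb (-0.21) and 233 of 2896 beyond (-0.18). With S5P 50 of 168 fell and 2 rose (median -0.28). The largest fall among the enhancers was at the end of Taf1d, with 12.7, 12.8 and 12.4 RPM in DMSO, 1.01, 1.29 and 0.696 RPM in triptolide and 1.76, 2.43 and 2.38 RPM in DRB (-2.78, limma adjusted p = 5.1e-14; DRB -2.10). At the end of Rps23 the drugs differed, with 8.37, 12.3 and 11.5 RPM in DMSO, 2.32, 2.46 and 1.11 RPM in triptolide and 6.74, 7.42 and 7.68 RPM in DRB (-2.0; DRB -0.49; triptolide minus DRB -1.51). With DRB 27 enhancers fell (0.307%) and 31 rose (0.353%). Triptolide lay below DRB in 18 (0.205%) and above in 0 (0.0%).

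The largest rise among other peaks was in the end region of Lars2, the mitochondrial leucyl-tRNA synthetase gene, with 24.4, 22.5 and 18 RPM in DMSO, 72.3, 78.3 and 98.7 RPM in triptolide and 59.5, 82.2 and 62.2 RPM in DRB. Both drugs lay above DMSO without overlap (triptolide 1.89, limma adjusted p = 6.6e-14; DRB 1.60). Sorcs3 (1.72; DRB 1.35) also rose with both.

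Between peaks, more gene bodies rose than fell. Of 11149 genes of at least 10 kb, 1085 bodies rose (9.73%) and 194 fell (1.74%), in log2(RPM per kb + 0.1) with windows over peaks left out (median 0.087). With DRB 71 rose (0.637%) and 80 fell (0.718%). Bodies of genes with S5P gave 307 rises and 125 falls of 2984, and others 778 and 69 of 8165. Npm1, encoding the nucleolar protein nucleophosmin, held 0.785, 1.49 and 1.23 RPM per kb in DMSO, 0.177, 0.176 and 0.157 in triptolide and 0.769, 1.15 and 0.927 in DRB. Triptolide lay below every other library (-2.19, SE 0.24, limma adjusted p = 0.00021; DRB -0.25). Hnrnpk (-1.49), Hspd1, encoding the chaperonin HSP60 (-1.41), Snx5 (-1.45; DRB -1.11) and Eif1a (-1.25) also fell. The rises included Asl, a urea cycle gene, with 0.269, 0.0851 and 0.18 RPM per kb in DMSO and 0.566, 0.609 and 0.863 in triptolide (1.52, limma adjusted p = 0.0017). Counts of rises were 387 without triptolide replicate 3 and 637 without DMSO replicate 2, and with only the 6 libraries fitted 0 rose and 0 fell (limma; 2366 at an unadjusted p under 0.05). Scaled to background windows 694 rose and 312 fell (median 0.033), with windows over peaks kept 767 and 389 (median 0.028), and with a pseudocount of 0.5 RPM per kb 968 and 188 (median 0.039). Without triptolide replicate 3 the median was 0.057.

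After the 2 h chase the unbound fraction showed the same contrast with more calls. There 3711 TSS windows fell (12.2%) and 686 rose (2.26%), and 4318 enhancers fell (49.2%; median -0.45) and 132 rose (1.5%). Of the 36 snRNA windows with S5P 33 fell (median -1.96), of 58 histone genes 52 (13.8% of all genes; median -1.05) and of 480 gene-end windows 286, with 3 rises (16.3% and 3.32% of all other peaks; median -0.77). The test of the change in effect between the times called 7 TSS windows lower (0.0231%) and 1 higher (0.0033%), and 378 enhancers lower (4.3%) and 3 higher (0.0342%). Rnu5g was at -3.10 and H1f5 at -1.36 at 2 h, beside -2.80 and -1.43 in the nascent unbound libraries.

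In the EdU-bound nascent libraries the balance between site types was different. There 6423 TSS windows fell (21.2%; median -0.22) and 677 rose (2.23%), and 912 enhancers fell (10.4%) and 93 rose (1.06%). The interaction of drug and fraction called 2165 TSS windows lower in the EdU fraction (7.14%) and 99 higher (0.327%). These counts were 400 and 273 after centring on the median TSS window, and 877 and 64 scaled to background windows. At the snRNA windows with S5P the sign was the other way, with the EdU-fraction effect above the unbound one in 18 of 36 and below in 0 (EdU median -0.72, unbound -1.66), and in 19 and 0 under either other scaling; these windows were grouped with their unbound values known. Enhancers had 2 higher (0.0228%) and 10 lower (0.114%) of 8783. Gene-end windows with S5P had 55 higher and 1 lower of 480 (0.0954% and 0.21% of all other peaks), and histone genes 2 higher and 0 lower of 58 (0.291% and 8.1% of all genes). Rnu1a1 was at -0.08 in the EdU fraction and -2.45 in the unbound fraction.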

How the data were processed

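The windows table was deposited by the authors as log2(RPM + 1) per 1 kb window for 36 libraries in 12 groups of 3. Per the submitters' processing notes, Trim Galore 0.4.2, Bowtie2 2.2.6.2 and mm10 were used. For the peak caller, strand handling and multi-mapping reads, no method was given in the sources used here. Positions of TSSs, enhancers and peaks came from the deposited region lists. Since 100% of values gave whole reads within 0.1 read, depth per library could be recovered (2351201 to 14363372 reads in the 6 libraries).

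Windows above 0 in at least 3 of the 18 unbound libraries were tested with limma 3.58.1 in R 4.3.3 (moderated test with a mean trend, 1 fit for all 18, Benjamini-Hochberg adjustment over each class). Set means were compared with two-sided exact permutation tests (scipy 1.17.1). Interactions with EdU-bound libraries used a fit to all 36. Gene bodies ran from 2 kb after the TSS to 1 kb before the gene end. The fit was tested on simulated data, where it recovered most of the largest changes but a minority of the smaller ones; the simulated folds and levels had been changed after a first version recovered too few.

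TSSs were paired with RefSeq genes (GRCm38.p6), 24841 in all, using strand where the promoter table gives it; for other genes the paired end is less certain. The named coding TSS windows are the 12 largest falls and 12 largest rises past the threshold whose libraries do not overlap, plus up to 4 called genes per list and a fixed panel; enhancers and other peaks have 4 each way and bodies 6. A few windows that this rule names are not reported here. The snRNA, snoRNA, polymerase III, histone and microRNA windows, the gene-end classes and the length classes were chosen after values were seen. Members and lists were chosen with earlier results of these data known.

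Alternatives covered leaving out each library, a replicate block, other scalings, filters and pseudocounts, limma-voom on recovered reads (with library totals added after seeing the data) and means of 3 windows.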

Additional observations from a re-analysis of the deposited data

Results flagged for a closer look

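For 32 named TSS entries that were called with triptolide in the unbound fraction, the effect also differed between the EdU and the unbound fraction of the nascent libraries by the interaction test (limma, 36 libraries, Benjamini-Hochberg adjusted p under 0.05). Values are the EdU effect minus the unbound effect in log2(RPM + 1), and both effects rest on 3 against 3 libraries.

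Most entries were genes of small nuclear RNAs, where the unbound fall was the larger. The difference was 1.51 at Rnu5g (unbound -2.80, EdU -1.29), 2.37 at Rnu1a1 (unbound -2.45, EdU -0.08), 1.37 at Rnu3b4, 1.89 at Rnu3b1, 1.11 at Rnu11 and 1.12 at Rnu2-10. Among unnamed snRNA genes it was 2.14 at Gm22265, 2.13 at Gm25099, 2.37 at Gm22634, 1.60 at Gm22973, 1.69 at Gm23143, 1.68 at Gm24830, 1.68 at Gm22068, 2.04 at Gm25313, 1.57 at Gm23287, 1.13 at Gm25939, 1.53 at Gm23472 and 1.03 at Gm24265. The snoRNA genes Snord118 and Snord13 had 2.10 and 1.64.

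The histone genes H4c18 and H4c8 had 1.33 and 1.36, and Gm11335, which shares the H4c8 window, 1.36. At 4930404N11Rik the difference was 1.66 (unbound -1.94, EdU -0.28).

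At the 8 entries that rose in the unbound fraction the difference was -1.60 at Cisd2, -1.33 at Klhdc7a, -1.51 at Astl, -1.44 at Snx20, -1.53 at Rps3, -1.73 at Ccnh (unbound 0.63, EdU -1.10), -1.19 at Emc7 and -1.62 at Psma1.

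The entries were chosen because they were called in the unbound fraction, and that choice favours a difference of the opposite sign, so the signs are a description only. After centring on the median TSS window 24 of the 24 entries with an unbound fall were still called, and 2 of the 8 with a rise; scaled to background windows these counts were 24 and 7.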

How the results depend on the processing

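Depth limits small calls most, since 1 read is worth 0.425 RPM in DMSO replicate 2. Called TSS rises (215) and falls (463) were 8 and 117 with only the 6 libraries fitted; rises were 112 scaled to background windows, 339 with a mean of at least 1 RPM, 358 by limma-voom and 334 with means of 3 windows, and falls 806 centred on the median TSS window, 810 by limma-voom and 731 by limma-voom with library totals. Leaving out 1 library gave 69 to 251 rises and 245 to 441 falls. Enhancer rises (63) and falls (1047) were 11 and 286 with 6 libraries and 171 and 132 by limma-voom, and falls were 1736 centred and 1664 with library totals; left-out libraries gave 23 to 70 and 223 to 972. Other peaks (2484 and 3065) gave 1102 and 1554 with 6 libraries, 4999 falls centred and 4778 with library totals, and 1302 to 3029 and 1355 to 3211 with a library left out. Background rises (4) were 0 with 6 libraries, and 0 to 9 rises and 0 to 18 falls with a library left out. Gene bodies (1085 and 194) gave 0 and 0 with 6 libraries (limma; 2366 at an unadjusted p under 0.05), 694 and 312 scaled to background, 389 falls with peak windows kept, and 387 to 1028 and 98 to 178 with a library left out. Triptolide against DRB (17 above, 173 below) gave 5 above centred and 5 scaled to background, and 2 to 32 and 105 to 188 with a library left out. The 2 h minus nascent test (1 and 7) gave 0 and 0 centred (limma) and 0 higher scaled to background, and 0 to 1 and 0 to 5 with a library left out. The EdU minus unbound test (99 and 2165) gave 273 and 400 centred, 64 and 877 scaled to background, and 54 to 84 and 1181 to 1747 with a library left out. The lowest counts came mostly without triptolide replicate 3; rises at TSSs were 91 without DMSO replicate 2. With each library left out, the means over all TSS, enhancer and other peak windows and over TSS windows with S5P kept their direction. The difference in mean RPM at TSS windows without S5P (0.0084) lay between -0.026 and 0.043 and turned negative without DMSO replicate 3 or triptolide replicate 1.

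Deviations of same-numbered DMSO and triptolide libraries correlated at 0.1189, 0.0129 and 0.105. Pairs of unlike number lay between -0.1146 and 0.0168, the highest being DMSO replicate 2 with triptolide replicate 3. The labels give only the number, and whether libraries of the same number share a batch was not tested. With a replicate block TSS rises and falls were 310 and 578, enhancers 99 and 1482, other peaks 3363 and 4397, gene bodies 1218 and 229, and triptolide against DRB 32 and 193. Of 203 called named windows, 82 kept direction and call in all 16 settings and 121 lost the call in some. The Mgme1 body reversed to -0.012 with peak windows kept, and H3c15 was at -0.77 with means of 3 windows; the cause was not tested.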
